A study of Homo sapiens with 36 samples.

Results

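Knockdown of TAZ was examined in MCF-10A ER-Src cells under tamoxifen (TAM), the condition labelled transformed. The comparison held 4 of the 36 libraries of the series, chosen by their titles, 2 with an siRNA against TAZ (TAZi_TAM) and 2 with a control siRNA (Ctrli_TAM). RNA was measured by sequencing, and the question was which genes depend on TAZ in the transformed cells. MCF-10A is an immortalized, non-transformed breast epithelial line. ER-Src joins the v-Src oncoprotein to the part of the estrogen receptor that binds ligand, and tamoxifen thereby activates it. Both groups carried the ER-Src transgene, were grown with EGF, insulin, hydrocortisone and cholera toxin, and differed in the siRNA alone. In non-transformed cells kept in ethanol (ETH), 2 Ctrli_ETH and 2 TAZi_ETH libraries were compared in the same way. Another 2 libraries with an siRNA against YAP, the paralogue of TAZ, under TAM (YAPi_TAM) were set against TAZi_TAM directly. The protocol gives tamoxifen at 0.4 to 1 µM together with AZD0530, a Src inhibitor, at 2 to 4 µM, and it is attached to the ETH libraries too. The model is 1 cell line, and nothing in the labels says whether the 2 libraries of a group came from separate cultures. P-values therefore measure the spread between these libraries, which may be technical.

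TAZ, encoded by WWTR1, and YAP are transcriptional co-activators at the end of the Hippo pathway. Its kinases phosphorylate them and hold them in the cytoplasm. When the pathway is off they enter the nucleus and act through DNA-binding partners, chiefly the TEAD factors, on genes of cell-matrix contact, growth and survival.

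For TAZ the study lists a commercial siRNA pool and 1 single siRNA, and which of them was used for these libraries is not stated. The single sequence is shown because it marks where WWTR1 RNA would be targeted. It is in capitals throughout, since every base matches the transcript in the sense direction.

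siRNA listed for TAZ: ACGUUGACUUAGGAACUUU

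It matched GRCh38 chr3:149520887-149520905 on the minus strand, inside an exon of WWTR1. The site lay in coding sequence in 4 annotated transcripts and outside it in 2. WWTR1 was the gene with an exact match among annotated transcripts.

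WWTR1 (ENSG00000018408.14, chromosome 3, 149517235 to 149736714, minus strand) was lower in both TAZi_TAM libraries than in any library without its siRNA. Its level was 6.59 and 6.44 TPM (a length-corrected share of the library) in Ctrli_TAM and 1.28 and 1.4 TPM in TAZi_TAM. The log2 fold change, fitted on expected counts, was -2.22 (SE 0.25), a 4.67-fold fall, with an adjusted p of 5.18e-17 in DESeq2 and 0.00128 in edgeR. Over the 16 ER-Src libraries without a TAZ siRNA, WWTR1 ran from 4.83 to 9.23 TPM, and over the 4 with it from 1.28 to 2.77 TPM. YAP1, which encodes YAP, stood at 29.81 and 28.88 TPM in Ctrli_TAM and at 28.12 and 25.03 TPM in TAZi_TAM. The YAP1 difference was -0.17 on the log2 scale (SE 0.12, DESeq2 adjusted p 0.574). A fall was thus seen for WWTR1 and was not detected for its paralogue.

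**Figure D1:**
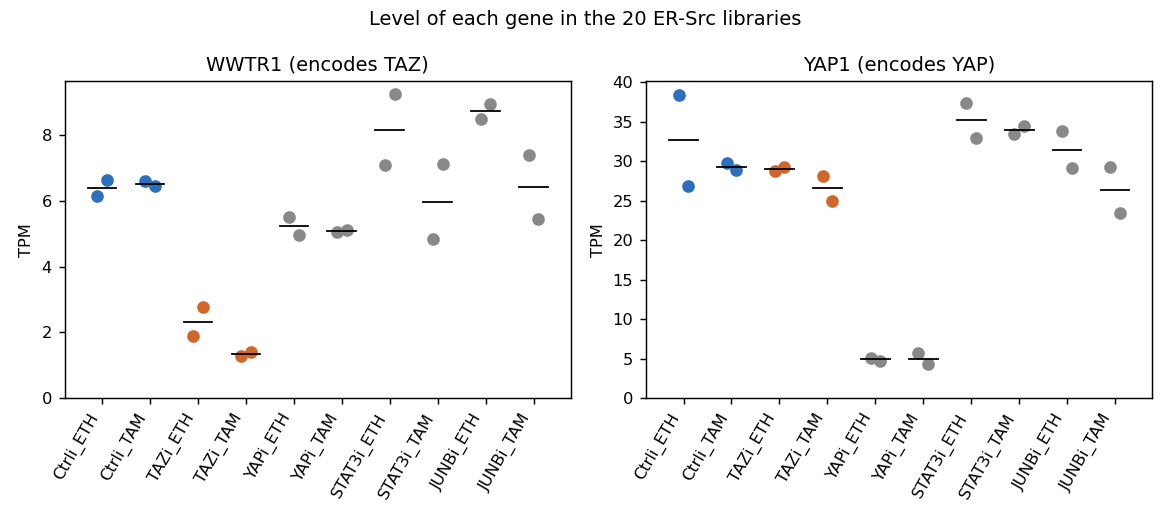
Level in TPM (vertical) of WWTR1 and of YAP1 in each of the 20 ER-Src libraries by group (horizontal), 1 point per library and a line at the mean of 2. The 4 TAZi points for WWTR1 lie between 1.28 and 2.77 TPM, below all 16 others, while for YAP1 the 4 low points, at 4.31 to 5.74 TPM, are those with a YAP siRNA.

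The 4 TAM libraries held 6419720 to 15596733 expected counts and 13112 to 15479 genes with at least 10 counts, Ctrli_TAM replicate 2 being the shallowest. Of 8 markers of basal breast epithelium, 6 were over 10 TPM in all 4 libraries, with KRT5 at 1335.96 and 1198.2 TPM in Ctrli_TAM and 1434.14 and 1433.67 TPM in TAZi_TAM. Of 8 luminal markers, ESR1, KRT8 and KRT18 were over 10 TPM in all 4 libraries, and ELF5, GATA3 and PGR were under 1 TPM. The ER-Src transgene holds part of the estrogen receptor, so ESR1 reads may come from it, which was not tested. The luminal markers, with ESR1 included, summed to 385.8 and 293.2 TPM in Ctrli_TAM and 295.1 and 283.4 TPM in TAZi_TAM. The basal markers summed to 2896 and 2721 TPM and 3368 and 3495 TPM. All 5 endothelial markers and 4 of 6 haematopoietic markers were under 1 TPM. Of 8 mesenchymal markers, 5 were under 1 TPM in all 4 libraries, and COL1A2 was at 0. Their summed level was 71.5 and 68.45 TPM in Ctrli_TAM and 210.3 and 217 TPM in TAZi_TAM. Most of that was DCN (decorin, a collagen-binding proteoglycan), which rose from 67.28 and 64.36 TPM to 202.69 and 209.03 TPM (1.76, SE 0.1, DESeq2 adjusted p 1.90e-65). LUM (lumican), a related proteoglycan, rose from 1.03 and 2.14 TPM to 4.37 and 4.46 TPM. In bulk RNA, more or fewer cells of a type and more or less RNA per cell cannot be told apart.

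TAZ knockdown under TAM raised 241 genes and lowered 234. These 475 genes, called at a DESeq2 adjusted p under 0.01, were 3.53% of the 13442 tested, with 1.79% higher and 1.74% lower. Most changes were moderate. A change of at least 2-fold was reached by 82 of the genes that rose and 59 of those that fell, and the median sizes were 0.79 and 0.69 on the log2 scale. The 2 groups did not overlap at any called gene, nor at 60.1% of all tested genes. Protein-coding genes made up 435 of the calls. By edgeR's quasi-likelihood test 195 genes were called, 192 of them among the 475. The count was 157 without Ctrli_TAM replicate 1, 167 without Ctrli_TAM replicate 2, 198 without TAZi_TAM replicate 1 and 96 without TAZi_TAM replicate 2. A set of 47 genes, 34 higher and 13 lower, was called in all 10 alternative settings that kept the threshold.

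**Figure D2:**
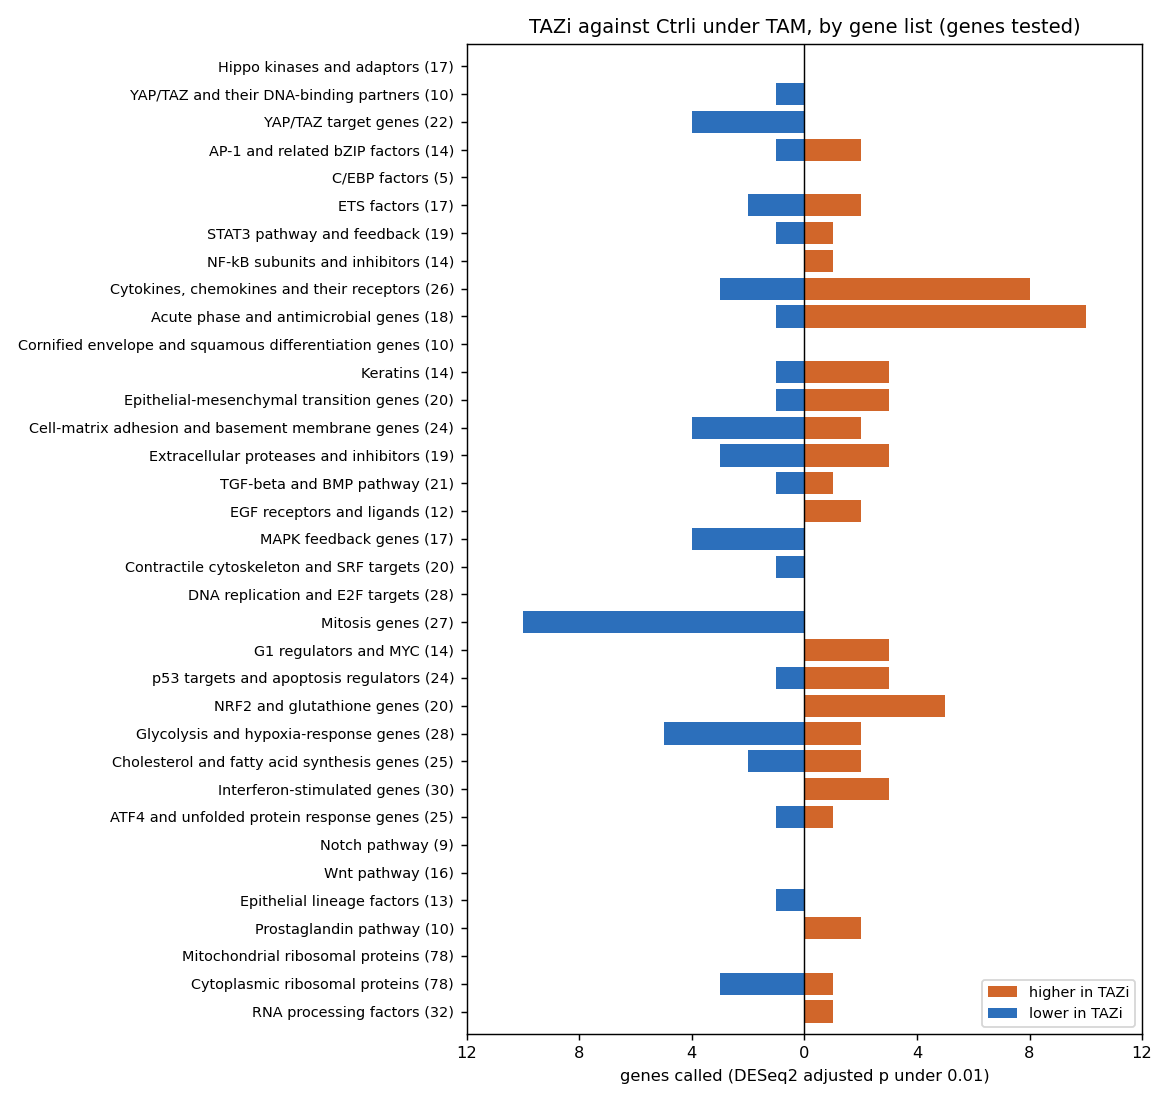
Number of genes called higher (right, orange) and lower (left, blue) in TAZi than in Ctrli under TAM (horizontal) for each gene list (vertical), with the number tested in parentheses. The longest bars are the acute phase list (10 of 18 higher), the cytokine list (8 of 26 higher) and the mitosis list (10 of 27 lower).

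Among the genes that rose most were secreted proteins of innate defence. LTF (ENSG00000012223.12, chromosome 3, 46435645 to 46485234, minus strand), which encodes the iron-binding antimicrobial protein lactoferrin, was at 1.01 and 0.81 TPM in Ctrli_TAM and 15.62 and 16.06 TPM in TAZi_TAM. The change of 4.5 on the log2 scale (SE 0.25, DESeq2 adjusted p 9.15e-67) was a 22.7-fold rise. HP (ENSG00000257017.8, chromosome 16, 72054505 to 72061055, plus strand), which encodes haptoglobin, the plasma protein that binds free haemoglobin, rose 18.8-fold, from 5.23 and 3.62 TPM to 99.1 and 78.74 TPM (4.23, SE 0.19, DESeq2 adjusted p 1.65e-103). HP has a near-identical neighbour, HPR, and overlaps TXNL4B on the opposite strand, so that part of its reads may belong to these. LBP, which presents bacterial lipopolysaccharide to immune receptors, rose from 0.56 and 0.46 TPM to 4.24 and 4.75 TPM. CHI3L1, a secreted chitinase-like glycoprotein, rose from 31.52 and 28.72 TPM to 177.94 and 166.62 TPM, and its relative CHI3L2 rose from 6.24 and 2.76 TPM to 18.74 and 21.85 TPM. These 5 genes were chosen among calls without overlap between the groups, so that its absence adds nothing. They were also called by edgeR, with adjusted p-values from 1.15e-04 to 0.00231.

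The promoters of LTF and CHI3L2, among the largest rises, and of FGFBP1, among the largest falls, are printed as examples that match a motif given below. Each is the 250 bases before the start site in RefSeq (GRCh38.p14), 5′ to 3′ on the gene's strand. Capitals mark letters that match one of the motifs searched on both strands, which were GGAATG (TEAD), TGANTCA (AP-1), TTCNNNGAA (STAT), TTGCNNAA (C/EBP) and CCGGAA (ETS). Most windows of the genes with the largest changes held no match. These were the windows of AKR1C2, ELF3, COL5A3, SULF2, CHI3L1, EHF, WWTR1, CXCR1, PPP1R13L, ADAM19 and MPC2.

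LTF, chr3:46485235-46485484, minus strand: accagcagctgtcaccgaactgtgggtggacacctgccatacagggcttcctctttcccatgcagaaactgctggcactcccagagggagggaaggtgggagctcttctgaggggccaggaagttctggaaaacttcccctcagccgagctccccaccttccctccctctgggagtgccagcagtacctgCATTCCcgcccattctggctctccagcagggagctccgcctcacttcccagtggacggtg

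CHI3L2, chr1:111227409-111227658, plus strand: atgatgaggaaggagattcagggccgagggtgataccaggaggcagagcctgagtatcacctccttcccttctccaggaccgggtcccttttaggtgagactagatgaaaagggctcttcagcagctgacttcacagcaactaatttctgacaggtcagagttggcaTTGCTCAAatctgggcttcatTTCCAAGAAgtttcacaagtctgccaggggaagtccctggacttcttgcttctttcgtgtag

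FGFBP1, chr4:15938741-15938990, minus strand: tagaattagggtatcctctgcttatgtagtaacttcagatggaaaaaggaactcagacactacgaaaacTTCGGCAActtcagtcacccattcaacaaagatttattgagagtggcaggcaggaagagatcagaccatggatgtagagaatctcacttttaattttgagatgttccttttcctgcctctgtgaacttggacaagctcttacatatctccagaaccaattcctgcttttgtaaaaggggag

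GGAATG was in the windows of 10.4% of 183 genes that rose, 5.49% of 164 that fell and 9.24% of 9933 tested genes with a window. TGANTCA was in 4.92%, 6.1% and 3.82%, in the same order. For TTCNNNGAA the shares were 7.1%, 7.32% and 5.51%, and for TTGCNNAA 7.65%, 9.76% and 6.11%. CCGGAA was in 20.8%, 14.6% and 26%. These shares describe the letters of a short window and were given no test.

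Of the acute phase and antimicrobial genes, 10 of 18 tested rose and 1 fell, with a median change of 0.92 beside -0.004 over all tested genes. S100A8 and S100A9, which together form the antimicrobial calprotectin, were abundant. S100A8 rose from 1441.31 and 1368.46 TPM to 2825.99 and 2988.54 TPM. Its partner S100A9 rose from 2998.14 and 3401.34 TPM to 5179.18 and 5738.69 TPM, so both were higher in both TAZi libraries. SAA2, a serum amyloid A protein, rose from 1107.87 and 930.12 TPM to 2575.63 and 2274.62 TPM. The close copy SAA1 was at 1571.25 and 1381.57 TPM in Ctrli_TAM and 2648.55 and 1951.45 TPM in TAZi_TAM (0.51, SE 0.27, DESeq2 adjusted p 0.342), and reads shared between the 2 genes make their separate values uncertain. Complement genes were also higher. C3, the central component, rose from 114.0 and 71.94 TPM to 207.26 and 215.92 TPM, and CFB, of the alternative pathway, from 47.61 and 33.51 TPM to 95.88 and 93.01 TPM. C1R and C1S, the proteases of the first component, rose by 0.77 and 1.2 on the log2 scale, and the protease inhibitor SLPI rose by 0.48 (0.0017 as DESeq2 adjusted p). SERPINA3, the acute phase protease inhibitor antichymotrypsin, fell from 293.25 and 249.32 TPM to 154.65 and 145.16 TPM. By edgeR 7 members were higher and 1 lower, and in the fit over all 10 ER-Src groups 6 and 0.

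Cytokines, chemokines and their receptors gave 8 higher and 3 lower genes of 26 tested, with a median change of 0.53. Among the ligands, CXCL1, a neutrophil attractant, rose from 48.87 and 46.7 TPM to 129.77 and 125.0 TPM (1.29, SE 0.11, DESeq2 adjusted p 8.74e-29). CCL20, which attracts CCR6-bearing lymphocytes, rose from 66.78 and 57.94 TPM to 121.19 and 138.69 TPM. CSF1, the macrophage growth factor, rose from 3.7 and 3.11 TPM to 8.97 and 7.79 TPM, and IL32, a pro-inflammatory cytokine, from 8.86 and 7.4 TPM to 20.42 and 21.11 TPM. For these 4 ligands the groups were well apart. CXCL8, the chief neutrophil chemokine, rose from 14.46 and 15.22 TPM to 23.75 and 24.38 TPM, with an edgeR adjusted p of 0.0207. IL24, of the interleukin-10 family, rose by 0.43 (SE 0.11, DESeq2 adjusted p 0.00399, edgeR 0.0689). CSF3, the granulocyte growth factor, fell from 78.64 and 77.01 TPM to 58.57 and 52.67 TPM. IL1A and IL1B were not called, at 0.13 and -0.25 on the log2 scale. IL6 was at 0.11 and 0.12 TPM in Ctrli_TAM and 0.39 and 0.49 TPM in TAZi_TAM and received no adjusted p.

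Receptors moved both ways. IL1R1, the signalling receptor for interleukin-1, rose from 5.71 and 4.55 TPM to 11.32 and 12.55 TPM, and the decoy receptor IL1R2 from 17.93 and 19.77 TPM to 55.49 and 49.29 TPM. IL1RAP, the accessory chain of the same receptor, fell by 0.54 (SE 0.13, DESeq2 adjusted p 0.00239, edgeR 0.0141). CXCR1, a receptor for CXCL8, fell 4.02-fold, from 4.46 and 4.01 TPM to 1.39 and 0.95 TPM. Of the whole cytokine and receptor list edgeR called 6 higher and 1 lower. The fit over all 10 ER-Src groups gave 7 and 1, and the replicate block 6 and 2. Over the list, the count of higher genes was 4 to 6 and of lower genes 1 when any 1 library was left out.

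**Figure D3:**
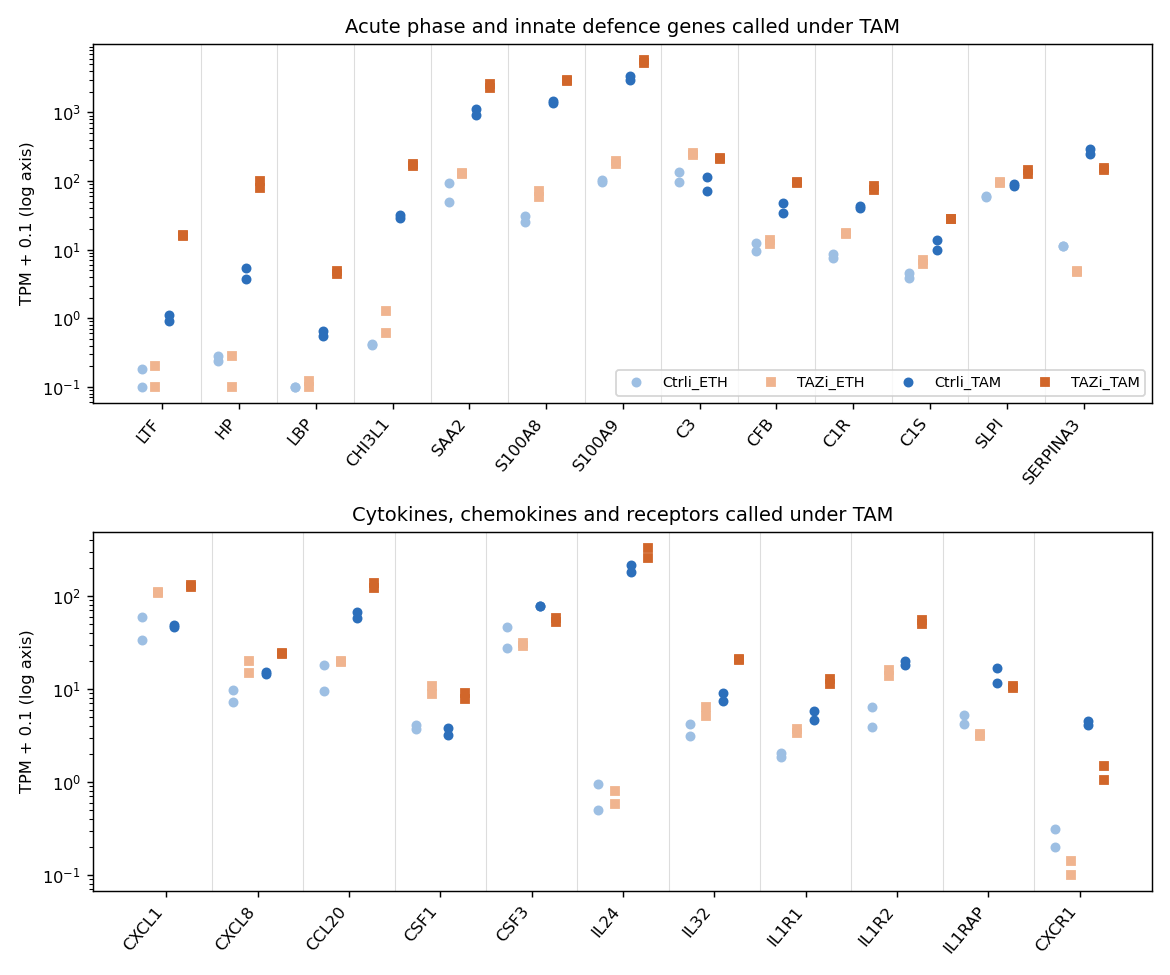
TPM plus 0.1 on a log axis (vertical) for called genes of the 2 inflammatory lists and for LBP and CHI3L1 (horizontal), 1 point per library, circles for Ctrli and squares for TAZi, pale for ETH and dark for TAM. The dark squares lie above the dark circles except for SERPINA3, CSF3, IL1RAP and CXCR1.

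Transcription factors linked to such genes gave few calls. The exceptions were ELF3 and EHF, epithelial ETS factors. ELF3 rose 6.25-fold, from 5.05 and 4.77 TPM to 29.69 and 35.41 TPM (2.64, SE 0.18, DESeq2 adjusted p 4.03e-44), and EHF from 0.98 and 0.7 TPM to 2.96 and 3.47 TPM, while ETV1 and ELK3 fell by 0.88 and 0.92, 2 calls that became 0 when any 1 library was left out. ELF3 overlaps an antisense gene, and whether counting used strand is not stated. Of 14 NF-kB subunits and inhibitors, BIRC3, an inhibitor of apoptosis, was the gene called, and rose from 22.95 and 21.78 TPM to 34.54 and 40.59 TPM. NFKB1 and RELA stood at 0.31 and -0.04 (DESeq2 adjusted p 0.186 and 0.973). In the STAT3 pathway IL6ST, the gp130 receptor chain, rose by 0.51 and SOCS2, a feedback inhibitor of cytokine signalling, fell by 1.01, of 19 genes. EdgeR called 0 genes of the NF-kB list and 0 of the STAT3 list. STAT3 itself was at 44.15 and 33.8 TPM in Ctrli_TAM and 53.51 and 53.06 TPM in TAZi_TAM (0.34, SE 0.11, DESeq2 adjusted p 0.0349). Among 14 AP-1 and related factors NFIL3, a bZIP repressor, rose by 0.83, and FOS fell from 32.73 and 33.54 TPM to 22.66 and 19.62 TPM. EdgeR called 2 of these factors higher and 0 lower. JUNB and JUN were not called, at -0.13 and 0.15. Of 5 C/EBP factors 0 were called by DESeq2 or edgeR, and 0 had an unadjusted p under 0.05, beside 3.53% of all tested genes called by DESeq2.

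Upstream members of the Hippo pathway gave 0 calls, which for a list of 17 genes is near the 3.53% called over all tested genes. By DESeq2 and by edgeR 0 of 17 kinases and adaptors were called, 3 had an unadjusted p under 0.05, and the differences ran from -0.35 to 0.34 on the log2 scale. TEAD1, a DNA-binding partner of TAZ, was at 8.6 and 7.8 TPM in Ctrli_TAM and 6.56 and 7.1 TPM in TAZi_TAM, and TEAD4 at 10.48 and 8.14 TPM and 8.79 and 9.66 TPM.

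A list of 22 YAP/TAZ target genes gave 4 lower and 0 higher genes under TAM, and 17 of the 22 differences were below 0, with a median of -0.32. Under ETH the list did not fall as a whole. Its median was 0.22 there, with 14 of 22 differences above 0, 2 genes called higher and 3 called lower. A difference between TAM and ETH, tested as described below, was called for 0 of the 22. Under TAM, AXL, a receptor tyrosine kinase, fell from 12.67 and 13.63 TPM to 6.99 and 7.06 TPM (-0.95, SE 0.13, DESeq2 adjusted p 3.84e-10). NT5E, the ecto-enzyme that makes extracellular adenosine, fell from 24.08 and 22.26 TPM to 12.29 and 13.01 TPM (-0.88, SE 0.13, DESeq2 adjusted p 1.02e-09). Both were called in 10 of 10 alternative settings. CCN1, a matrix-associated growth regulator, fell from 14.47 and 15.18 TPM to 9.59 and 7.53 TPM, and MYOF, a membrane-repair protein, fell by 0.69, with edgeR adjusted p-values of 0.021 and 0.0235. CCN2, a secreted matrix protein widely used as a readout of YAP and TAZ, was at 1.34 and 1.27 TPM in Ctrli_TAM and 0.58 and 0.55 TPM in TAZi_TAM (-1.35, SE 0.46, DESeq2 adjusted p 0.0528). ANKRD1, another common readout, was at 0.66 and 0.78 TPM and 0.35 and 0.37 TPM (DESeq2 adjusted p 0.404). Neither was called, and both were low in these 4 libraries. The count of 4 was 2 by edgeR, 6 in the fit over all 10 ER-Src groups, and 2 without Ctrli_TAM replicate 2 or without TAZi_TAM replicate 2.

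Genes of cell-matrix adhesion showed 4 falls and 2 rises among 24 tested. LAMB3 and LAMA3 encode laminin chains of the basement membrane, to which basal epithelial cells attach. LAMB3 fell from 78.58 and 73.83 TPM to 52.95 and 48.44 TPM, and LAMA3 from 30.63 and 28.55 TPM to 19.7 and 24.04 TPM. ITGA5, the fibronectin receptor chain, fell from 30.61 and 23.66 TPM to 19.97 and 19.76 TPM. ITGB8, an integrin chain that activates latent TGF-beta, rose from 3.82 and 3.06 TPM to 6.73 and 8.31 TPM, and the plakin DST rose by 0.34. The counts were 3 falls and 1 rise by edgeR, 2 and 1 without TAZi_TAM replicate 1, 1 and 1 without TAZi_TAM replicate 2, and 4 and 1 without Ctrli_TAM replicate 1 or without Ctrli_TAM replicate 2. Of 19 extracellular proteases and inhibitors, 3 rose and 3 fell. The metalloprotease ADAM19 fell from 3.52 and 2.64 TPM to 1.46 and 0.84 TPM. TIMP1, an inhibitor of metalloproteases, fell by 0.54, while TIMP3, of the same family, rose by 1.49. The serine protease inhibitors SERPINB2 and SERPINB4 rose by 1.55 and 0.38. Of the proteases and inhibitors edgeR called 1 higher and 1 lower, and without TAZi_TAM replicate 2 the counts were 0 and 1, with 1 higher and 2 to 3 lower when another library was left out.

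Of 20 genes of the epithelial-mesenchymal transition, 3 were called higher and 1 lower. The cadherin CDH3 and the matrix proteins SPARC and THBS1 rose by 0.47, 0.65 and 0.4, and LOX, a collagen cross-linking enzyme, fell by 0.76. CDH1 and VIM were at 0.52 and -0.32 (DESeq2 adjusted p 0.0469 and 0.0535). By edgeR 0 genes of this list were called. With the offsets, with the replicate block, and without Ctrli_TAM replicate 2, TAZi_TAM replicate 1 or TAZi_TAM replicate 2 the count of higher genes was 0, and in the last of these the count of lower genes was 0 too. Without Ctrli_TAM replicate 1 it was 1 higher and 1 lower. Among keratins, KRT16, which marks activated epidermis, rose from 25.54 and 24.56 TPM to 57.09 and 62.34 TPM, KRT17 and KRT75 rose by 0.35 and 3.3, and KRT7, of simple epithelia, fell by 0.48. By edgeR, and when any 1 library was left out other than Ctrli_TAM replicate 2, 1 keratin was higher, and KRT7 was not called by edgeR, with the offsets, in the fit over all 10 ER-Src groups, or without Ctrli_TAM replicate 2, TAZi_TAM replicate 1 or TAZi_TAM replicate 2. These keratins have close copies, which makes low values uncertain.

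Of 27 mitosis genes tested, 10 were called lower and 17 were not called. All 27 differences were below 0, with a median of -0.41. MKI67, the proliferation marker, fell from 18.03 and 14.74 TPM to 10.92 and 10.07 TPM (-0.75, SE 0.16, DESeq2 adjusted p 1.24e-04). CENPF, a kinetochore protein, fell from 27.31 and 25.32 TPM to 19.03 and 18.71 TPM, and the cyclins CCNB1, CCNB2 and CCNA2 fell by 0.38, 0.63 and 0.43. The spindle checkpoint kinases BUB1 and BUB1B fell by 0.55 and 0.66, and CDC20, KIF20A and PRC1 by 0.41, 0.45 and 0.51. The count was 1 by edgeR, 2 with the replicate block, 0 in the fit over all 10 ER-Src groups and 1 to 2 when any 1 library was left out. DNA replication genes gave 0 calls of 28 by DESeq2 and by edgeR, with 4 at an unadjusted p under 0.05 and a median of -0.06. Over all tested genes DESeq2 called 3.53%. CDKN1A, which encodes the cell-cycle inhibitor p21, rose from 24.8 and 25.8 TPM to 34.41 and 47.08 TPM, and MDM2, the ubiquitin ligase of p53, from 26.17 and 21.59 TPM to 39.76 and 42.87 TPM. MCL1, a survival factor of the BCL2 family, fell from 132.76 and 136.5 TPM to 80.77 and 75.45 TPM. MYC was at -0.02 on the log2 scale (SE 0.11, DESeq2 adjusted p 0.973).

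Feedback genes of the MAPK pathway gave 4 falls and 0 rises of 17 tested. DUSP4, DUSP5 and DUSP6, phosphatases that switch off MAP kinases, fell by 0.93, 0.74 and 0.69, and IER3, an early response gene, by 0.67. The count was 1 by edgeR, and 0 without Ctrli_TAM replicate 2 or without TAZi_TAM replicate 2.

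Among 28 glycolysis and hypoxia-response genes, 5 fell and 2 rose. STC1, a secreted glycoprotein induced in low oxygen, fell 3.13-fold, from 52.04 and 37.31 TPM to 16.3 and 14.95 TPM. NDRG1, likewise hypoxia-induced, fell from 101.61 and 80.38 TPM to 39.93 and 33.39 TPM, and ANGPTL4, a regulator of lipoprotein lipase, from 118.24 and 114.1 TPM to 72.05 and 62.8 TPM. The glycolytic enzymes GAPDH and PFKP fell by 0.4 and 0.55. HK2, the first enzyme of glycolysis, and the carbonic anhydrase CA12 rose by 0.64 and 1.03. By edgeR 3 were lower and 1 higher, in the fit over all 10 ER-Src groups 2 and 2, and without TAZi_TAM replicate 1 or TAZi_TAM replicate 2 3 and 1. Of 20 NRF2 and glutathione genes, 5 rose and 0 fell. AKR1C2, a steroid-reducing enzyme, rose 6.4-fold, from 4.6 and 3.95 TPM to 25.03 and 34.98 TPM. AKR1C1, AKR1C3, NQO1 and GCLM rose by 1.39, 1.34, 0.49 and 0.67. The 3 AKR1C genes are close copies whose reads the counting may share. The count of 5 was 2 by edgeR, 1 in the fit over all 10 ER-Src groups, 3 with the replicate block, 1 without Ctrli_TAM replicate 1, 2 without Ctrli_TAM replicate 2, 3 without TAZi_TAM replicate 1 and 1 without TAZi_TAM replicate 2.

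Further large changes belonged to no single list. COL5A3, a fibrillar collagen chain, rose from 0.59 and 0.65 TPM to 4.59 and 3.5 TPM. SULF2, which trims sulphate from heparan chains, rose from 0.76 and 0.93 TPM to 4.88 and 4.02 TPM, and SLC43A2, an amino acid transporter, from 1.57 and 1.13 TPM to 4.03 and 4.54 TPM. FGFBP1, which releases fibroblast growth factors from the matrix, fell from 16.15 and 17.96 TPM to 5.08 and 7.22 TPM (-1.62, SE 0.21, DESeq2 adjusted p 9.36e-12). PPP1R13L, an inhibitor of p53, fell from 4.14 and 5.17 TPM to 1.43 and 2.18 TPM, and MPC2, part of the mitochondrial pyruvate carrier, from 23.35 and 29.69 TPM to 9.27 and 10.23 TPM. MPC2 overlaps DCAF6 on the opposite strand. ENSG00000282883.1, which had no match in the annotation used here, rose by 2.2. The lncRNA ENSG00000280614 fell by 3.33 and shares its values with ENSG00000280800 and ENSG00000281181, so that the 3 identifiers count 1 signal. ENSG00000260342 and ENSG00000279483 fell by 1.79 and 1.66, with edgeR adjusted p-values of 0.0441 and 0.0228.

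Other lists held few calls. Of 30 interferon-stimulated genes GBP1, IFI44L and HLA-B rose by 0.78, 0.98 and 0.61. In the TGF-beta and BMP list ID3, an inhibitor of differentiation factors, rose from 4.75 and 5.85 TPM to 13.92 and 19.09 TPM, and LTBP1, which stores TGF-beta in the matrix, fell by 0.59. The EGF-family ligands EREG and EPGN rose by 0.67 and 0.97. CYP51A1 and LSS of cholesterol synthesis rose by 0.44 and 0.48, while FDPS, of the same pathway, and the fatty acid synthase FASN fell by 0.44 and 0.7. The G1 regulators CDK6 and CCND2 rose by 0.58 and 0.87, the p53 targets RRM2B and TP53INP1 by 0.53 and 1.47, and the prostaglandin genes PTGES and PTGFR by 0.36 and 1.53. CALR, DHX9 and RPS27L rose by 0.4, 0.48 and 0.59. DDIT4, KLF6 and TAGLN2 fell by 0.66, 0.68 and 0.61, and the ribosomal protein genes RPL36, RPL37 and RPLP1 by 0.54, 0.55 and 0.43. By edgeR 0 genes of the G1, cholesterol and fatty acid, and cytoplasmic ribosomal protein lists were called. Nor did edgeR make the calls of the TGF-beta and BMP list, or those of CALR, DHX9, DDIT4, KLF6 and TAGLN2. Without TAZi_TAM replicate 2 the EGF, G1, cholesterol, TGF-beta and prostaglandin lists held 0 calls, and without TAZi_TAM replicate 1 the interferon list did. The higher p53 targets were not called when any 1 library was left out. The mitochondrial ribosomal protein, Notch and Wnt lists, with 78, 9 and 16 genes, held 0 calls by DESeq2 and by edgeR, and 8, 0 and 6 genes at an unadjusted p under 0.05. The DESeq2 share over all tested genes was 3.53%.

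**Figure D4:**
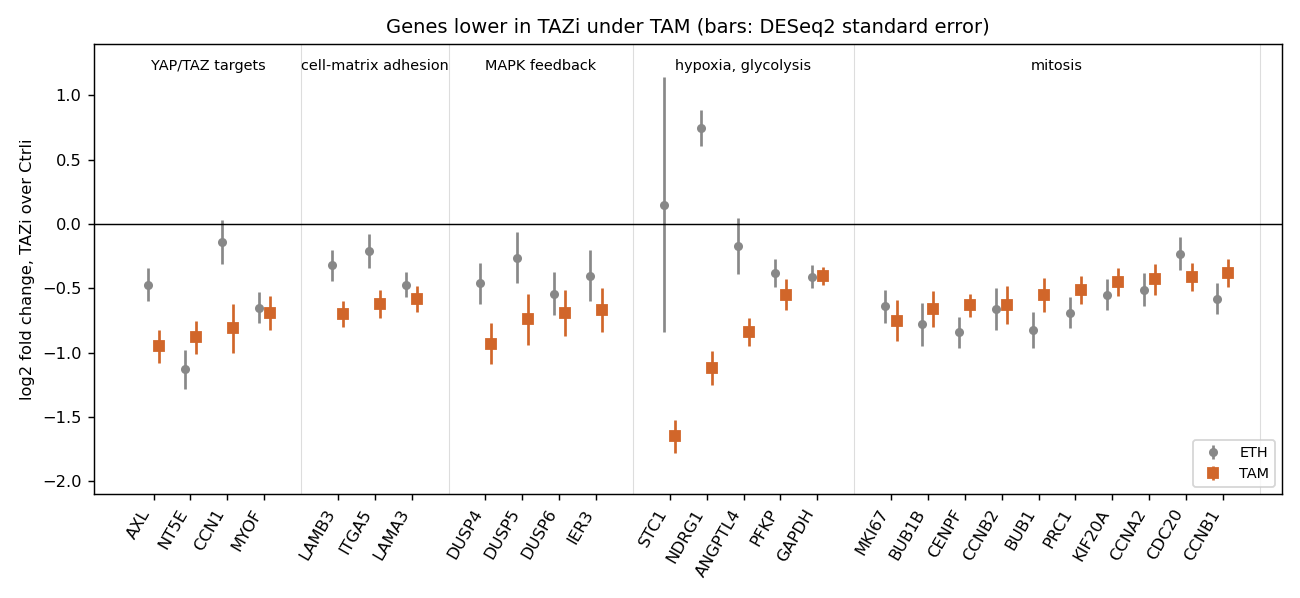
Log2 fold change of TAZi over Ctrli (vertical) with its DESeq2 standard error for genes called lower under TAM in 5 groups (horizontal), as orange squares for TAM and grey circles for ETH. All squares lie below 0, and NDRG1 is the gene whose ETH value lies above 0 by more than its standard error.

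The same knockdown in non-transformed cells used other libraries throughout. Under ETH, 727 genes, or 4.86% of 14956 tested, were called, 2.4% higher and 2.46% lower. Of the 475 genes called under TAM, 423 (89.1%) had the same sign under ETH, and 199 (41.9%) were called there, 197 in the same direction. CXCL1 rose by 1.29 under TAM and 1.16 under ETH, IL1R2 by 1.48 and 1.57, C3 by 1.06 and 1.16, and COL5A3 by 2.55 and 2.95. NT5E fell by 0.88 and 1.13, and MPC2 by 1.47 and 1.15. LTF and HP were near 0 under ETH, at 0.08 and 0.0 TPM in Ctrli_ETH and 0.1 and 0.0 TPM in TAZi_ETH for LTF, and 0.14 and 0.18 TPM and 0.18 and 0.0 TPM for HP.

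**Figure D5:**
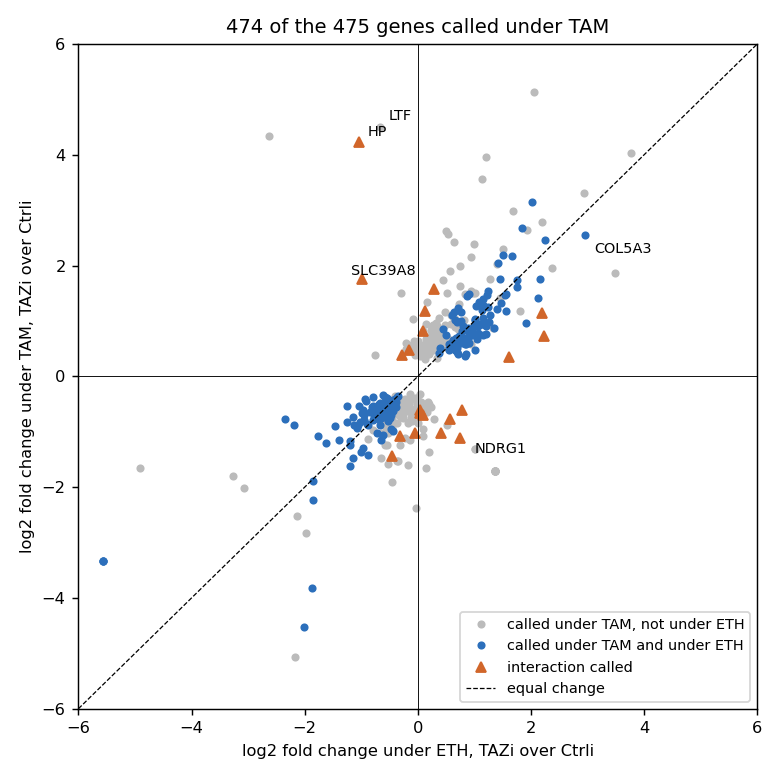
Log2 fold change of TAZi over Ctrli under TAM (vertical) against that under ETH (horizontal), 1 point per gene, for 474 of the 475 genes called under TAM, blue where also called under ETH and orange triangles where the interaction was called. Most points lie at the lower left and upper right, and ENSG00000258232, at 0 in both Ctrli_ETH libraries, lies off the axis.

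Whether the knockdown acted differently under TAM and ETH was tested with an interaction term, fitted on 8 libraries. It was called for 79 genes, or 0.539% of 14661 tested, 16 with a more positive and 63 with a more negative change under TAM. By edgeR 5 were called, 0 with a more positive change and 5 with a more negative one, and with offsets for effective length 125, of which 47 were shared. Among the 475 TAM calls it was called for 21. SLC39A8, a zinc and manganese importer, rose from 42.53 and 36.66 TPM to 107.46 and 133.17 TPM under TAM, and was at 14.12 and 9.58 TPM and 13.11 and 13.16 TPM under ETH (interaction 1.26, DESeq2 adjusted p 8.81e-14, edgeR 0.0156). CFB and KYNU, an enzyme of tryptophan breakdown, had interactions of 1.03 and 0.71, which edgeR did not call (adjusted p 0.0676 and 0.0783). NDRG1 fell by 1.12 under TAM and rose by 0.75 under ETH on the count scale (interaction -1.89, DESeq2 adjusted p 2.54e-22). Its ETH levels in TPM, 26.68 and 26.46 and 26.12 and 30.17, differ less than the counts, which are not corrected for transcript length. Of the 63 negative interactions, 45 were genes called higher under ETH, and 39 of those were not called under TAM. KRT14, a basal keratin, was such a gene by DESeq2 (edgeR adjusted p 0.0213), at 130.59 and 144.23 TPM in Ctrli_ETH and 427.18 and 434.37 TPM in TAZi_ETH, against 221.34 and 216.91 TPM and 284.42 and 254.46 TPM under TAM.

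TAZ and YAP knockdown under TAM were compared directly, without the controls. At a DESeq2 adjusted p under 0.01, 923 genes, or 6.32% of 14600 tested, differed, 392 (2.68%) higher in TAZi and 531 (3.64%) lower. Of the TAM calls for TAZi, 473 were tested here and 150 (31.7%) differed, 86 of them higher in TAZi. WWTR1 was at 5.04 and 5.11 TPM in YAPi_TAM. COL5A3 was at 4.59 and 3.5 TPM in TAZi_TAM and 0.25 and 0.17 TPM in YAPi_TAM (4.18, DESeq2 adjusted p 4.84e-50). IL33, an alarmin cytokine, was at 3.38 and 2.62 TPM and 0.29 and 0.14 TPM. GLDC, BATF3, RHOU and GRAMD1B were also among the 6 with the largest difference, by 3.23, 2.45, 2.43 and 2.35. Mitosis genes gave 9 of 27 higher in TAZi than in YAPi and 0 lower. Genes of squamous differentiation lay on the opposite side, with 13 of 19 lower in TAZi than in YAPi and 0 higher. Against Ctrli_TAM, 10 of the 31 listed genes were tested, and 0 were called in TAZi_TAM, with a median change of 0.45. The share called over all tested genes was 3.53% there. A fall of this list against the control was thus not detected. SPRR1B, a cornified envelope protein, was at 0.34 and 0.98 TPM in TAZi_TAM and 26.24 and 20.4 TPM in YAPi_TAM. S100A7, an antimicrobial protein of squamous cells, was at 8.33 and 10.41 TPM and 481.3 and 146.39 TPM, and the tight-junction gene CLDN4 at 0.27 and 0.16 TPM and 6.59 and 6.39 TPM. SPRR2D, CEACAM6 and SLC6A14 had few reads in TAZi_TAM, at 0.1 and 0.05, 0.08 and 0.04 and 0.06 and 0.22 TPM, against 16.49 and 13.37, 3.45 and 3.3 and 6.03 and 3.47 TPM in YAPi_TAM. For LTF and HP the contrast was not called (DESeq2 adjusted p 0.795 and 0.164), and the 2 YAPi_TAM libraries lay far apart, at 13.27 and 1.47 TPM and 26.93 and 3.94 TPM.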

How the data were processed

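RNA of MCF-10A ER-Src cells was sequenced after library preparation with a TruSeq Ribo Profile kit. Per the labels and the study's methods, the authors aligned reads with STAR to hg38 and counted them with RSEM, whose versions are not given in the sources used here. The deposited values are expected counts, TPM and effective lengths per gene. Whether strand was used is not stated, and reads with several alignments were kept and shared among genes, which blurs close copies.

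Ensembl genes were kept. Gene names, positions and overlaps come from GENCODE version 44, which 93.1% of 60725 identifiers matched. Promoters come from RefSeq. Expected counts were rounded and tested with DESeq2 1.42.0 in R 4.3.3, as in the study's methods, at an adjusted p under 0.01 over all tested genes. Each comparison had a fit of its own libraries, and the interaction used 8. TPM served for levels. Log2 fold changes rest on counts and are not corrected for transcript length. All scripts with a test across genes were tested on simulated data.

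Alternatives were edgeR 4.0.16 (quasi-likelihood), TMM size factors, a mean count of at least 10, offsets from effective lengths, 1 fit over all ER-Src groups, the replicate block, a threshold of 0.05 and leaving out each library. Genes named are the 12 per direction with the largest change among calls whose normalized counts averaged at least 100 and did not overlap between groups, 6 per direction for the interaction and for TAZi against YAPi, and the called and main members of the gene lists. Some genes that this rule takes in are not reported here. Members and lists were chosen with earlier results of these data known. Libraries of other knockdowns and of MDA-MB-231 cells were not used here beyond the fit over all groups and the levels of WWTR1 and YAP1.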

Additional observations from a re-analysis of the deposited data

Results flagged for a closer look

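The effect of TAZ knockdown differed between TAM and ETH, by the DESeq2 interaction test, for the genes given here, 6 in each direction with the smallest p-values among well-expressed genes. Each interaction is the log2 change under TAM minus that under ETH. It was 1.26 for SLC39A8, 1.03 for CFB and 0.71 for KYNU, 3 genes higher in TAZi under TAM and not called under ETH. UBB, a ubiquitin gene, had an interaction of 0.65, with 227.94 and 204.24 TPM in Ctrli_TAM, 292.01 and 307.72 TPM in TAZi_TAM, 359.55 and 304.06 TPM in Ctrli_ETH and 299.1 and 277.18 TPM in TAZi_ETH. DDX3X, an RNA helicase gene, had one of 0.64, with 90.93 and 70.1 TPM and 97.27 and 98.54 TPM under TAM and 113.35 and 87.25 TPM and 78.04 and 60.68 TPM under ETH. For HP the fitted interaction of 5.17 rests on ETH levels near 0 and is no bound.

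In the negative direction the interaction was -1.89 for NDRG1, -1.45 for KRT14 and -1.66 for TGM1, a transglutaminase of the cornified envelope. TGM1 was at 10.83 and 11.1 TPM in Ctrli_ETH and 25.76 and 24.99 TPM in TAZi_ETH, and at 13.12 and 14.38 TPM and 12.63 and 13.26 TPM under TAM. ENSG00000203812.2, which had no match in the annotation used here, had an interaction of -1.95. ENSG00000269968, antisense to GAPDH, and ENSG00000258232, antisense to TUBA1C, had fitted interactions of -14.07 and -12.02. Both were at 0 in the 2 Ctrli_ETH libraries, so that these values depend on the fit and are no bound, and without strand their reads cannot be told apart from those of the abundant partner genes. By edgeR 5 interactions were called in all, and these were NDRG1, TGM1 and the 3 identifiers just given. KRT14 was not among them (edgeR adjusted p 0.0213), and edgeR called 0 of the positive interactions, with adjusted p-values from 0.0156 for SLC39A8 to 0.136 for HP among the 6 genes given here.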

How the results depend on the processing

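The 475 calls under TAM became 767 at an adjusted p under 0.05, 195 by edgeR (62.6% higher, against 50.7%), and 96 to 198 when 1 library was left out, with 35.4% higher without TAZi_TAM replicate 1. Under ETH the 727 calls became 1287 at 0.05 and 129 to 484 with 1 library left out, and with offsets for effective length 36.4% of 927 calls were higher, against 49.4%. The 79 interactions became 161 at 0.05, 5 by edgeR (2663 genes at an unadjusted p under 0.05), 125 with the offsets (52.0% higher, against 20.3%), 21 in the fit over all 10 ER-Src groups and 23 to 201 with 1 library left out. The 923 genes that differed between TAZi and YAPi became 1463 at 0.05, 414 by edgeR and 230 to 694 with 1 library left out. The causes were not tested.

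Replicate numbers are all that samples of different groups share. Correlations of their deviations were -0.035 under TAM, 0.243 under ETH and 0.286 for TAZi against YAPi, with 2 pairs each. With the replicate block, 178 genes were called under TAM (173 among the 475), 417 under ETH, 599 between TAZi and YAPi, and 68 interactions.

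WWTR1 stayed between -2.43 and -2.05 under every setting that gave a value, and it had no adjusted p without Ctrli_TAM replicate 1. Of 126 genes named or in a list with a call, 0 changed sign. The call was kept by 56 with edgeR, 63 in the fit over all groups, 76 with the replicate block, 101 with the offsets, 121 with the filter on low counts and 122 with TMM size factors. With 1 library left out, the lone sample of its group is assumed to vary like the other group. Without Ctrli_TAM replicate 1, 93 of the 126 genes received an adjusted p, and 4 ETS factors did where 17 had been tested. A call absent there can thus mean that the gene was not tested. Depth limits what is said of genes with few reads, and IL6 received no adjusted p.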

Other observations

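Several gene families were noticed after the values were seen and are given as counts, with no test of the family. Beside each of these counts, DESeq2 called 3.53% of all tested genes under TAM, 1.79% higher and 1.74% lower. Of 5 MHC class II genes tested, 4 were called higher in TAZi_TAM, all at low levels, and of these edgeR did not call CD74 (adjusted p 0.0133). HLA-DMA, which loads peptides onto class II molecules, was at 0.33 and 0.42 TPM in Ctrli_TAM and 2.26 and 3.07 TPM in TAZi_TAM. CD74, the invariant chain, was at 1.3 and 0.66 TPM and 4.06 and 3.61 TPM, and CIITA, the master regulator of the class, at 0.31 and 0.15 TPM and 1.13 and 0.91 TPM.

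Of 4 metallothioneins tested, which bind zinc and other metals, 3 were called lower, MT2A, MT1X and MT1E, and edgeR called MT2A alone (adjusted p 0.0322 for MT1X and 0.0701 for MT1E). MT2A fell from 2915.49 and 3045.47 TPM to 2080.12 and 1914.88 TPM. Of 11 SLC39A zinc importers 3 were called higher, SLC39A8, SLC39A14 and SLC39A6, and of 6 SLC30A exporters SLC30A1 was. SLC39A14 rose from 47.23 and 37.59 TPM to 72.14 and 80.34 TPM, and SLC30A1 from 4.86 and 4.74 TPM to 8.21 and 8.69 TPM. Of 7 linker histone genes tested, 5 were called lower and all 7 differences were below 0, and edgeR called 0 of the 5, with adjusted p-values from 0.0118 to 0.0427. Metallothioneins and linker histones are close copies among which reads may be shared, and linker histone RNAs mostly lack a poly(A) tail.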
